A study of Mus musculus with 23 samples.

Results

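The data described here are the hepatic transcript signals of 7 keratin genes, *Krt7*, *Krt8*, *Krt18*, *Krt19*, *Krt20*, *Krt23* and *Krt31*, after treatment of mice with the PXR ligand pregnenolone 16α-carbonitrile (PCN). Members were all non-control probes of the array whose gene name was one of these 7, which gave 8 probes of 56605 (7 genes of 37074 names), since *Krt8* had 2 probes. *Krt31* was chosen by its large rise in signal after PCN and *Krt23* by its fall, so their changes in WT mice, and the genotype contrasts that use the same WT arrays, are given as a description without a test. In all, 7 probes of 6 genes were tested among 32087 probes. The *Krt20* probe did not pass the filter, which asked that over 50% of the arrays in any 1 group show a signal well above background. The other member probes were well above background on all 23 arrays, so none of them passed through 1 group alone.

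Liver RNA came from male mice on a C57BL/6J background, with 1 array per mouse, at 6 h after the last of 4 daily intraperitoneal injections. The labels call the mice fed, while the study's text describes a semi-fasted state at that time of day. WT CONT mice (n = 6) received corn oil and WT PCN mice (n = 5) received PCN at 100 mg/kg in corn oil. *Pxr*-/- CONT mice (n = 6) and *Pxr*-/- PCN mice (n = 6) lacked the nuclear receptor PXR, encoded by *Nr1i2*, in the whole animal, and were treated in the same way. WT mice were bought at an age of 6 weeks and acclimatized for 2 weeks. The *Pxr*-/- mice came from an in-house colony, and genotype and colony cannot be told apart. Arrays were washed in 2 batches, each with 3 arrays of every group except for 2 WT PCN arrays in batch 2.

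Keratins are the intermediate filament proteins of epithelial cells, and a filament is built from pairs of a type I and a type II keratin. Hepatocytes use *Krt8* (type II) with *Krt18* (type I) almost alone, and these filaments protect the cells against mechanical and toxic stress. Bile duct cells add *Krt7* and *Krt19*, which mesothelial cells of organ surfaces also express, and *Krt20* belongs to the differentiated epithelium of the intestine. *Krt23* is a type I keratin with a low level in normal liver, and *Krt31* is a type I keratin of hair, found in the hair shaft cortex.

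Signals are log2 values after quantile normalization over the kept probes, and levels of different probes are not compared. The number of probes well above background ranged from 29510 to 33321 per array. The mean of the 8 measured hepatocyte markers lay between 16.09 and 16.47 on every array. It was 16.09 to 16.22 in WT PCN and 16.30 to 16.47 in *Pxr*-/- PCN mice, which did not overlap. In WT CONT it was 16.17 to 16.32 and in *Pxr*-/- CONT mice 16.17 to 16.33. The *Nr1i2* probe did not separate the genotypes in control mice, with a range of 10.63 to 12.15 in WT CONT and 10.16 to 12.08 in *Pxr*-/- CONT mice (limma adjusted p = 0.977 for a difference of -0.03). Whether this probe lies outside the deleted part is not given in the sources used here, so it checks nothing about the labels. The PXR target *Cyp3a11* changed by 3.55 after PCN in WT and by 0.31 in *Pxr*-/- mice. Nothing in the labels says more than that the arrays are separate animals, and p-values refer to the spread between them.

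One array stood apart in the keratins and in genes of the intestine. On WT CONT replicate 5, *Krt20* reached 10.57, and *Muc2*, the main secreted intestinal mucin, 10.56, on a scale normalized over all probes. The brush border disaccharidases *Sis* and *Lct* were at 9.31 and 7.51, the intestinal transcription factor *Cdx2* at 7.01 and the adhesion protein *Cdh17* at 6.32. On the other 22 arrays, *Muc2* did not exceed 5.22, *Sis* 5.21, *Lct* 6.20, *Cdx2* 5.34 and *Cdh17* 5.08, and only *Lct* was well above background on any of them (3 arrays). The sixth intestine marker of the list, *Fabp2*, is also expressed in liver and was above background on all 23 arrays. Its signal was lower after PCN, with fitted changes of -1.55 in WT and -0.81 in *Pxr*-/- mice. On this array it was at 14.72, against 12.43 to 14.48 on all others and 13.81 to 14.44 on the other WT CONT arrays. The epithelial genes *Epcam* (7.45 against at most 5.88) and *Cldn7* (9.92 against at most 7.69) were also highest there. Results for *Krt7*, *Krt19* and *Krt20* are therefore given with and without this array, and the part of these transcripts in them was not tested otherwise. These single-gene values were tabulated after the array had been seen to differ.

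**Figure D1:**
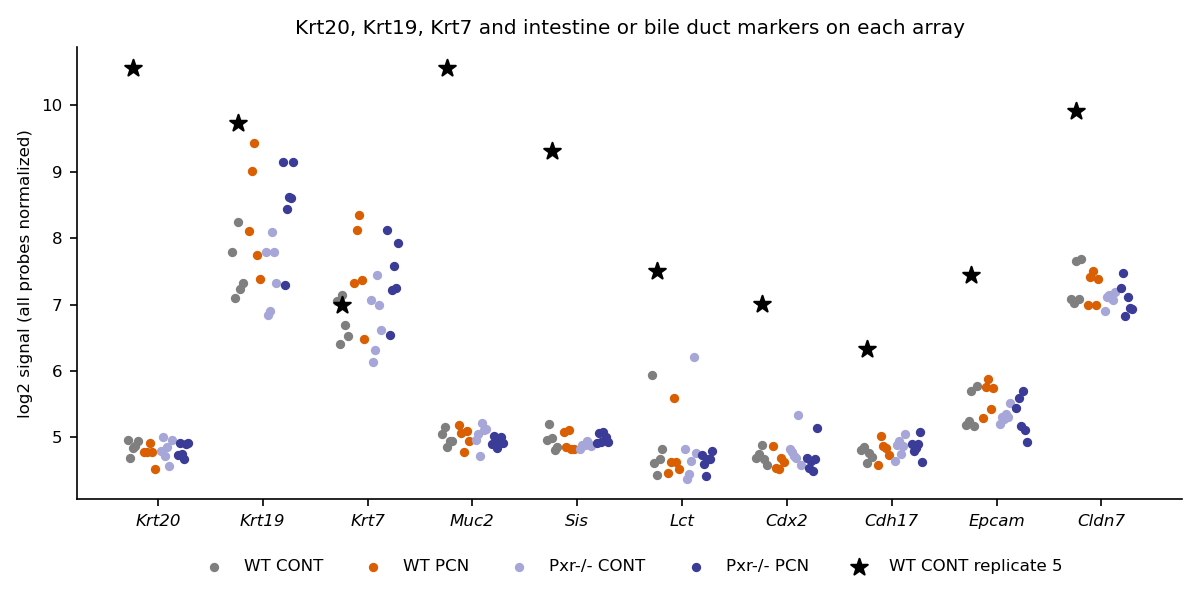
Log2 signal (vertical axis, normalized over all probes) of *Krt20*, *Krt19*, *Krt7*, 5 intestine markers and the epithelial genes *Epcam* and *Cldn7* (horizontal axis) on 23 arrays; points are arrays, coloured by group, and the star is WT CONT replicate 5. The star lies above all other arrays for every gene shown except *Krt7*, where it lies among them.

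The hair keratin *Krt31* had the largest fitted change of the members in WT mice. Its probe covers chr11:99907960-99908019 on the minus strand (mm9) and ends with the following 30 bases at the 3′ end of the transcript, in which the polyadenylation signal AATAAA is in capitals, shown because it places the measurement at the end of the mRNA.

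Krt31 probe, last 30 bases: ccctcccttgtaatctcccAATAAAcattt

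In WT CONT mice the *Krt31* signal was 6.75, 7.83, 6.58, 7.16, 6.66 and 6.65 in replicates 1 to 6. In WT PCN mice it was 10.88, 12.90, 12.26, 13.07 and 12.42 in replicates 1 to 5. The groups did not overlap, and the lowest WT PCN mouse was 3.05 above the highest WT CONT mouse. The fitted log2 change was 5.41 (95% confidence interval 4.84 to 5.98), or 42.4-fold, and it was 5.46 within washing batch 1 and 5.36 within batch 2. The means were 6.94 ± 0.49 (SD, n = 6) and 12.31 ± 0.86 (n = 5). No spot of the probe was saturated.

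*Krt31* was also higher after PCN in mice without PXR. *Pxr*-/- CONT mice had signals of 7.20, 8.08, 7.71, 7.64, 8.31 and 7.67, with a mean of 7.77 ± 0.39 (SD, n = 6). *Pxr*-/- PCN mice had 8.39, 9.12, 8.77, 8.81, 8.69 and 8.73, with a mean of 8.75 ± 0.23 (n = 6). All 6 treated mice lay above the highest control mouse, though by no more than 0.08 for the lowest of them, and all lay below the lowest WT PCN mouse. The log2 change of 0.98 (95% confidence interval 0.44 to 1.52), or 1.98-fold, was called (limma, adjusted p = 0.0272). *Krt31* was the only one of the 7 tested member probes called in *Pxr*-/- mice, where 1.23% of all probes tested were called higher and 0.698% lower. The size was 0.98 in washing batch 1 and 0.99 in batch 2, where the call was lost (limma adjusted p = 0.344 and 0.142). The call was also lost without *Pxr*-/- CONT replicate 1, 3 or 6, or without *Pxr*-/- PCN replicate 2, 3 or 4, with log2 changes of 0.90 to 1.01 (limma adjusted p between 0.0510 and 0.0671).

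The response of *Krt31* in WT mice exceeded that in *Pxr*-/- mice by 4.42 on the log2 scale (95% confidence interval 3.64 to 5.21), given without a test. In control mice the *Krt31* signal was 0.83 higher in the *Pxr*-/- than in the WT group (0.29 to 1.37), and 2 of 6 *Pxr*-/- CONT mice lay above the highest WT CONT mouse. This difference was 0.98 within washing batch 1 and 0.68 within batch 2. It also cannot be told apart from the difference in colony.

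**Figure D2:**
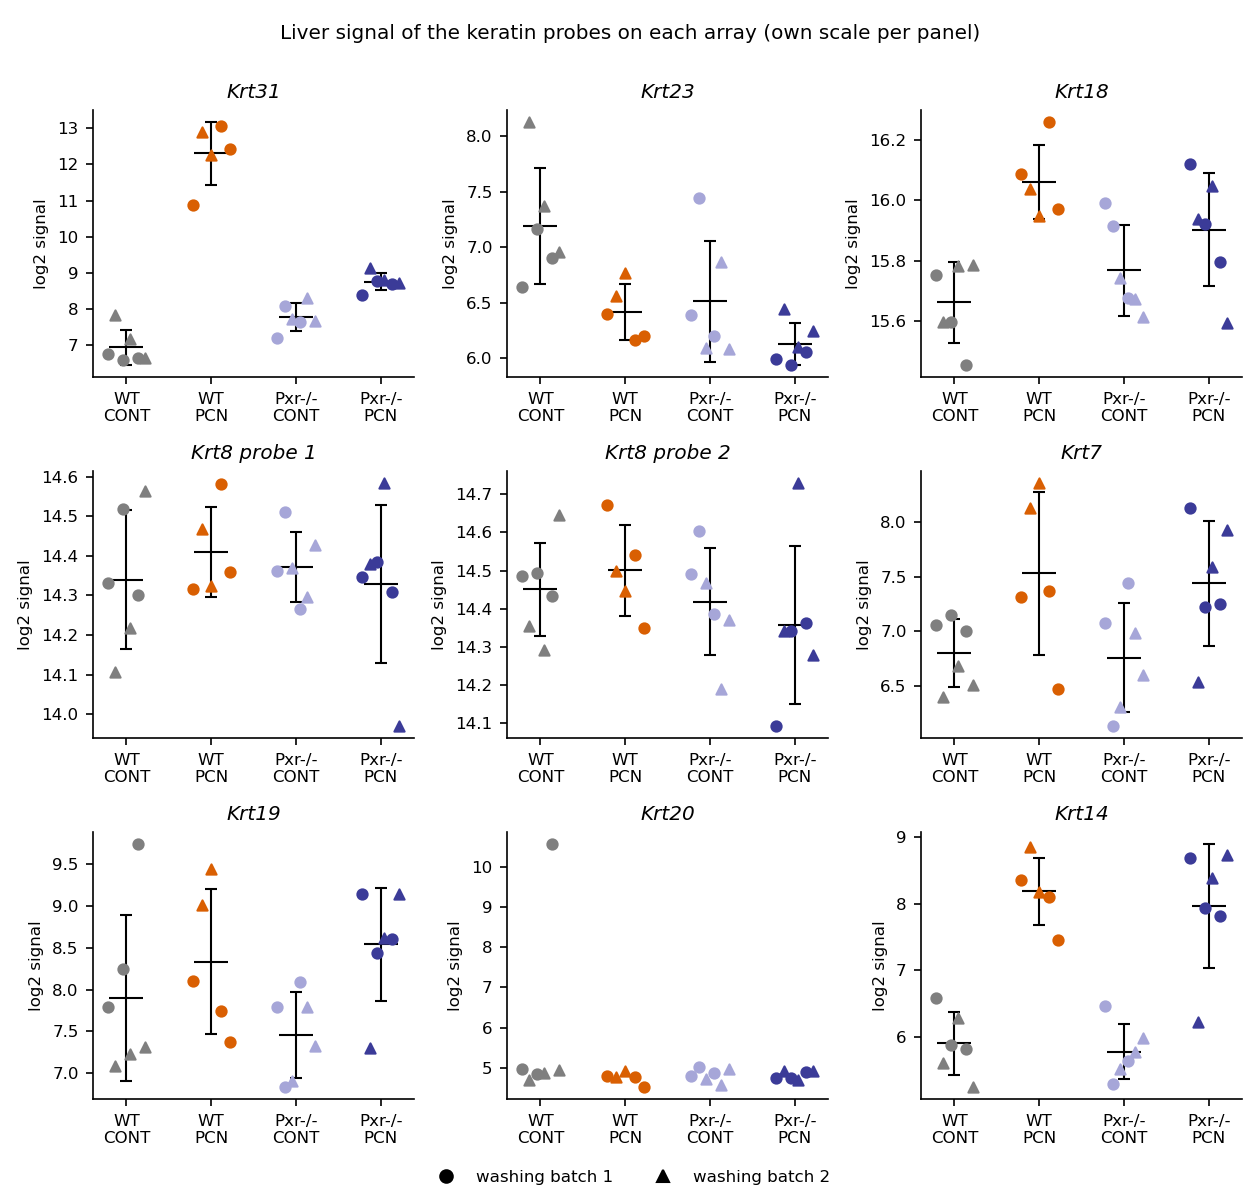
Log2 signal (vertical axis, own scale per panel) of each member probe and of *Krt14* in the 4 groups (horizontal axis); each point is 1 array, circles are washing batch 1 and triangles batch 2, and bars are the mean and SD (not drawn for *Krt20*, which was below background on 22 of 23 arrays). The *Krt31* points of WT PCN mice, between 10.88 and 13.07, lie above all other arrays, and *Krt20* is raised on WT CONT replicate 5 alone.

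Genes whose signals followed *Krt31* most closely were sought by Pearson correlation over the 23 arrays among 15080 genes with a RefSeq name. They were *Rnf150*, which encodes a RING finger protein (r = 0.997, WT change 5.23, *Pxr*-/- change 0.83), *Pou5f1*, known as a pluripotency factor (r = 0.995, 4.70 and 0.65), *Arhgap1*, a GTPase activating protein (r = 0.987, 3.22 and 0.43), *Gstm4*, a glutathione transferase (r = 0.978, 2.45 and 0.34), and *Akr1b7*, an aldo-keto reductase (r = 0.973, 4.71 and 0.48). The 23 points share the 4 groups, and 5 WT PCN arrays carry most of the range. After removal of group and batch means the correlations were 0.97, 0.97, 0.86, 0.83 and 0.87 in the same order. The 5 genes were picked by correlation on these same arrays. The *Krt31* SD was largest in WT PCN mice (0.86, against 0.23 to 0.49 in the other groups), so that group also weighs most in these values. Probes of *Gstm* genes can share sequence with close relatives, so the *Gstm4* value is uncertain in its gene.

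The *Krt31* promoter is shown because it belongs to the member with the largest response in WT mice, with the 6 bases TATAAA in capitals. The sequence is that of RefSeq (GRCm38.p6, chr11:100050552-100050801, minus strand) and holds the 250 bases before the transcription start, 5′ to 3′.

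Krt31: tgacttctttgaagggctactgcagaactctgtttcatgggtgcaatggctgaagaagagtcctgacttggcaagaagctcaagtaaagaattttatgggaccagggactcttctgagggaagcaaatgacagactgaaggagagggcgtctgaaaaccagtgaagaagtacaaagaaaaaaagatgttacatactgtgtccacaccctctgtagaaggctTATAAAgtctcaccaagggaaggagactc

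TATAAA was searched on the sense strand and lay 29 to 24 bases before the start in *Krt31*, a position it also had in *Krt20*. Of 32851 promoters of the same length, 7.59% held it, and 2 of the 6 member promoters in the table did. The nuclear receptor half-sites AGGTCA and AGTTCA, searched on both strands, were in 14% and 11.8% of all promoters. AGGTCA was found in *Krt8*, *Krt18* and *Krt20* and AGTTCA in *Krt20*, and neither was in *Krt31*, *Krt23* or *Krt7*. Direct repeats were also searched on both strands, of AGTTCA with 3 bases between the half-sites and of AGGTCA with 4 or 1. They were in none of the 6 and in 0%, 0.0152% and 0.0335% of all promoters. The window is limited to 250 bases, and a match or its absence describes these letters only. No promoter of *Krt19* was used here.

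*Krt31* lies in the cluster of type I keratin genes on chromosome 11, and the probes around it were compared. Within 250 kb on each side of the *Krt31* probe, the array held 47 probes of 39 genes, among them 15 keratin genes and 8 genes of keratin-associated proteins, which crosslink hair keratins. Of these, 20 probes were kept and 22 were above background on no array. The hair keratin genes nearest to *Krt31*, namely *Krt33a*, *Krt33b*, *Krt34*, *Krt32* and *Krt35*, were not kept, and of their probes only that of *Krt34* was above background on any array (1 *Pxr*-/- PCN array). With *Krt31* left out as not tested there, 1 probe of the window, *Krt14*, was called after PCN in WT mice. Among all probes tested in WT mice, 3.38% were called higher and 2.13% lower. In *Pxr*-/- mice *Krt14* was called, as was *Krt31*, the picked member on which the window was centred. Among all probes tested in *Pxr*-/- mice, 1.23% were called higher and 0.698% lower. The nearest kept neighbour, *Krtap16-1* at -61.1 kb, had a change of -0.19 in WT mice (limma adjusted p = 0.438).

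**Figure D3:**
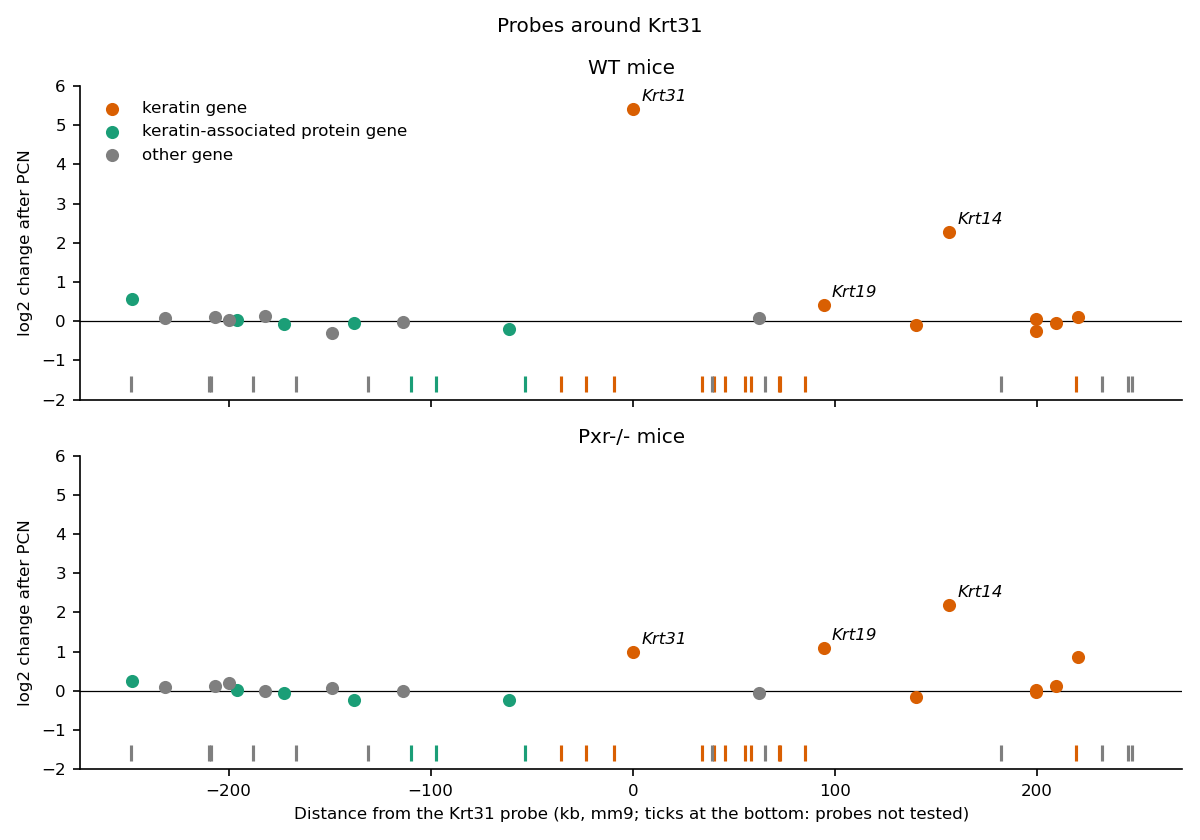
Log2 change after PCN (vertical axis) in WT mice (top) and *Pxr*-/- mice (bottom) against the distance of each probe from the *Krt31* probe in kb (horizontal axis, mm9); points are kept probes, coloured by gene class, and ticks at the bottom are probes that were not tested. In WT mice *Krt31* (5.41) and *Krt14* (2.27) stand above all other kept probes, and in *Pxr*-/- mice *Krt14* (2.18) does, with *Krt31* (0.98) beside *Krt19* (1.09), which was not called.

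*Krt23*, picked for its fall, had lower signals after PCN in WT mice with a small overlap. Its probe covers chr11:99339393-99339452 on the minus strand (mm9), and its last 30 bases are shown as the measured part of the transcript.

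Krt23 probe, last 30 bases: tccttggagttttcagattcagaaactttt

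WT CONT mice had *Krt23* signals of 6.64, 8.13, 7.16, 7.37, 6.90 and 6.95. WT PCN mice had 6.40, 6.56, 6.77, 6.16 and 6.20. The highest value of all 23 arrays was that of WT CONT replicate 2, and 1 WT PCN mouse, at 6.77, lay above the lowest WT CONT mouse. The fitted change was -0.75 (95% confidence interval -1.23 to -0.28), and it was -0.65 within washing batch 1 and -0.82 within batch 2. Means were 7.19 ± 0.52 (SD, n = 6) and 6.42 ± 0.25 (n = 5).

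In *Pxr*-/- mice the *Krt23* signals were 6.38, 7.45, 6.09, 6.20, 6.87 and 6.08 in the CONT group and 5.99, 6.44, 5.94, 6.10, 6.05 and 6.25 in the PCN group. The groups overlapped between 6.08 and 6.44, with 2 CONT mice above every PCN mouse and 3 PCN mice below every CONT mouse. The difference of -0.38 (95% confidence interval -0.83 to 0.07) did not pass the test (limma, adjusted p = 0.318), and it was -0.68 within washing batch 1 and -0.08 within batch 2. The response in WT minus that in *Pxr*-/- mice was -0.37 (-1.02 to 0.28), given without a test, and it turned to 0.04 within batch 1. In control mice *Krt23* was 0.68 lower in the *Pxr*-/- than in the WT group on the log2 scale (fitted difference -0.68, 95% confidence interval -1.13 to -0.23), with values of -0.22 and -1.14 within batches 1 and 2.

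The genes most like *Krt23* over the 23 arrays were *Bche*, which encodes butyrylcholinesterase (r = 0.834), *Atp5j2*, a subunit of mitochondrial ATP synthase (r = 0.832), *Tmem139*, a transmembrane protein (r = 0.810), *Mrpl14*, a mitochondrial ribosomal protein (r = 0.807), and *Uqcrh*, a subunit of respiratory complex III (r = 0.792). The rank correlation was clearly lower for *Mrpl14* (Spearman rank correlation 0.596). Their fitted changes lay between -0.36 and -0.07 in WT mice, against -0.75 for *Krt23*, and between -0.43 (*Bche*) and -0.06 in *Pxr*-/- mice, against -0.38 for *Krt23*. The *Krt23* promoter is printed for comparison with that of *Krt31* because these were the members picked for opposite changes. It is taken from RefSeq (GRCm38.p6, chr11:99493121-99493370, minus strand), and none of the motifs searched was in it, so that it has no capitals.

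Krt23: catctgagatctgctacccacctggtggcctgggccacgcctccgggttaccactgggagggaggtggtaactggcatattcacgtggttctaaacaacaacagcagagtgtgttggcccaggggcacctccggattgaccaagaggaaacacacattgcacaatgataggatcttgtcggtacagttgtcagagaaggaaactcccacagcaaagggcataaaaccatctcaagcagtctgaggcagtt

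Of the hepatocyte pair *Krt8* and *Krt18*, *Krt18* passed the test in WT mice and *Krt8* did not, and the difference between their changes was not tested. *Krt18* (chr15:101862341-101862400, mm9) had signals of 15.75, 15.60, 15.60, 15.78, 15.46 and 15.79 in WT CONT mice. In WT PCN mice it had 16.09, 16.04, 15.95, 16.26 and 15.97. The groups did not overlap. The change of 0.39 (95% confidence interval 0.20 to 0.59), or 1.31-fold, passed the test (limma, adjusted p = 0.00424) but not the fold of 1.5 set for a call. With the deposited values it was 0.63 and with a stacked quantile normalization 0.61, and both were called (limma, adjusted p = 0.000248 and 0.000789). These settings moved the median change of all probes to 0.11 and 0.10, against -0.02 here. *Krt18* changed by 0.50 within washing batch 1 (limma, adjusted p = 0.0254) and by 0.27 within batch 2 (adjusted p = 0.265).

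Without PXR, *Krt18* was at 15.99, 15.92, 15.74, 15.68, 15.67 and 15.62 without PCN and at 16.12, 15.94, 15.92, 16.05, 15.80 and 15.59 with it. The groups overlapped, and the difference of 0.13 (95% confidence interval -0.05 to 0.32) did not pass the test (limma, adjusted p = 0.406). The difference between the genotypes' responses, 0.26 (-0.01 to 0.52), did not pass it either (limma, adjusted p = 0.372).

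Both *Krt8* probes lie at the 3′ end of the gene on chromosome 15, from 101827214 to 101827273 (probe 1) and from 101827138 to 101827197 (probe 2; mm9). Signals of probe 1 were 14.33, 14.11, 14.52, 14.22, 14.30 and 14.56 in WT CONT and 14.32, 14.47, 14.32, 14.58 and 14.36 in WT PCN mice. Across all 23 arrays they ranged from 13.97 to 14.58, and those of probe 2 from 14.09 to 14.73. All groups overlapped on both probes. After PCN the changes were 0.07 and 0.05 in WT mice (limma, adjusted p = 0.669 and 0.761). Without PXR they were -0.04 and -0.06 (adjusted p = 0.839 and 0.761). The 95% confidence intervals of these 4 changes reached from -0.25 to 0.26. In WT mice the changes of probes 1 and 2 were 0.31 and 0.30 with the deposited values (limma, adjusted p = 0.0824 and 0.0744) and 0.29 and 0.27 with the stacked normalization (adjusted p = 0.164 and 0.161), so that these settings raised *Krt8* by about as much as *Krt18*. Over the 23 arrays probe 1 correlated with probe 2 (r = 0.588) and with *Krt18* (r = 0.473), while probe 2 and *Krt18* had r = 0.256.

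*Krt7* and *Krt19* varied widely between mice of 1 group, with SDs of 0.31 to 0.74 and of 0.52 to 0.99 in the 4 groups. *Krt7* (chr15:101253718-101253777, mm9) had signals of 7.06, 6.40, 7.15, 6.69, 7.01 and 6.51 in WT CONT and of 7.32, 8.12, 8.35, 7.37 and 6.48 in WT PCN mice. Of the WT PCN mice, 4 of 5 lay above the highest WT CONT mouse, and replicate 5 lay near the lowest. The change of 0.73 (95% confidence interval 0.09 to 1.36) was not called (limma, adjusted p = 0.0941), nor was the 0.77 without WT CONT replicate 5 (adjusted p = 0.106). It was called without WT PCN replicate 5, at 0.99 (limma, adjusted p = 0.0203). The washing batches differed, with -0.01 in batch 1 and a called change of 1.70 in batch 2 (limma, adjusted p = 0.986 and 0.0217). *Pxr*-/- mice had *Krt7* signals of 7.08, 6.14, 6.31, 7.44, 6.99 and 6.60 without PCN and of 8.12, 6.54, 7.22, 7.58, 7.25 and 7.92 with it. Of the 6 treated mice, 3 lay above all controls, and the change of 0.68 was not called (limma, adjusted p = 0.174).

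*Krt19* (chr11:100002392-100002451, mm9) had signals of 7.79, 7.09, 8.24, 7.23, 9.74 and 7.32 in WT CONT and of 8.10, 9.01, 9.44, 7.74 and 7.38 in WT PCN mice. Its highest value was that of WT CONT replicate 5, the array with the intestine transcripts. The change after PCN was 0.41 with this array and 0.80 without it, and neither was called (limma, adjusted p = 0.546 and 0.157). Within washing batch 1, which holds that array, it was -0.85 (limma, adjusted p = 0.252), and within batch 2 a called 2.01 (adjusted p = 0.0299). Without WT PCN replicate 3 it was 0.06 (limma, adjusted p = 0.943). In *Pxr*-/- mice the signals were 7.79, 6.84, 6.90, 8.09, 7.79 and 7.32 without PCN and 9.14, 7.30, 8.43, 8.62, 8.61 and 9.15 with it. Among treated mice, 5 of 6 lay above the highest control, but the change of 1.09 (95% confidence interval 0.22 to 1.95), or 2.12-fold, did not pass the test (limma, adjusted p = 0.125, and 0.0686 without WT CONT replicate 5). The difference between the genotypes' responses was -0.67 with WT CONT replicate 5 and -0.29 without it (limma, adjusted p = 0.669 and 0.867).

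The signals of *Krt7* and *Krt19* were correlated over the arrays, with r = 0.847 over 23 arrays and 0.961 over the 22 arrays without WT CONT replicate 5. They also followed markers of mesothelium, the cell layer that covers the liver surface. With the mean of the 6 mesothelium markers (*Msln*, *Wt1*, *Upk1b*, *Upk3b*, *Lrrn4* and *Gpm6a*), r was 0.854 for *Krt7* and 0.668 for *Krt19*, and 0.875 and 0.898 over the 22 arrays. After removal of group and batch means over all 23 arrays, r was 0.841 and 0.604. With the mean of 7 cholangiocyte markers, such as *Sox9* and *Spp1*, r was 0.273 for *Krt7* and 0.467 for *Krt19* over 23 arrays. Over the 22 arrays it was 0.330 and 0.330, and after removal of group and batch means 0.080 and 0.362. The mean of 7 genes of other intermediate filaments, such as *Vim*, also followed them, with r = 0.753 and 0.651 over 23 arrays. Over the 22 arrays these were 0.753 and 0.774, and after removal of the means 0.627 and 0.662. These are descriptions over arrays that share groups and batches, and the list means were compared with the members after their values had been seen.

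The mean of the mesothelium markers ranged from 6.14 to 6.97 in WT CONT, from 6.05 to 7.55 in WT PCN, from 5.96 to 7.18 in *Pxr*-/- CONT and from 6.09 to 7.73 in *Pxr*-/- PCN mice. The WT PCN array lowest in *Krt7* and *Krt19*, replicate 5, was also the lowest of its group in this mean, and replicate 3, the highest in both keratins, was the highest. Replicate 2 of the *Pxr*-/- PCN group was lowest in both keratins and in the mean. Of the 6 markers, 1 was called higher after PCN in each genotype, and this was *Wt1*, a mesothelial transcription factor (1.05 in WT and 0.89 in *Pxr*-/- mice, limma adjusted p = 0.00542 and 0.0324). Among all probes tested, 3.38% were called higher in WT and 1.23% in *Pxr*-/- mice. Mean levels of the 7 cholangiocyte markers were 6.83 to 7.75 in WT CONT (at most 7.46 without replicate 5, the array with the intestine transcripts), 7.27 to 7.53 in WT PCN, 6.80 to 7.03 in *Pxr*-/- CONT and 6.93 to 7.34 in *Pxr*-/- PCN mice. *Sox9*, a transcription factor of bile duct cells, was called in WT mice (0.76, limma adjusted p = 0.0109). A change in the number of cells of a type and a change in RNA per cell cannot be told apart in whole liver. The part of either cell type in the keratin signals was not tested.

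**Figure D4:**
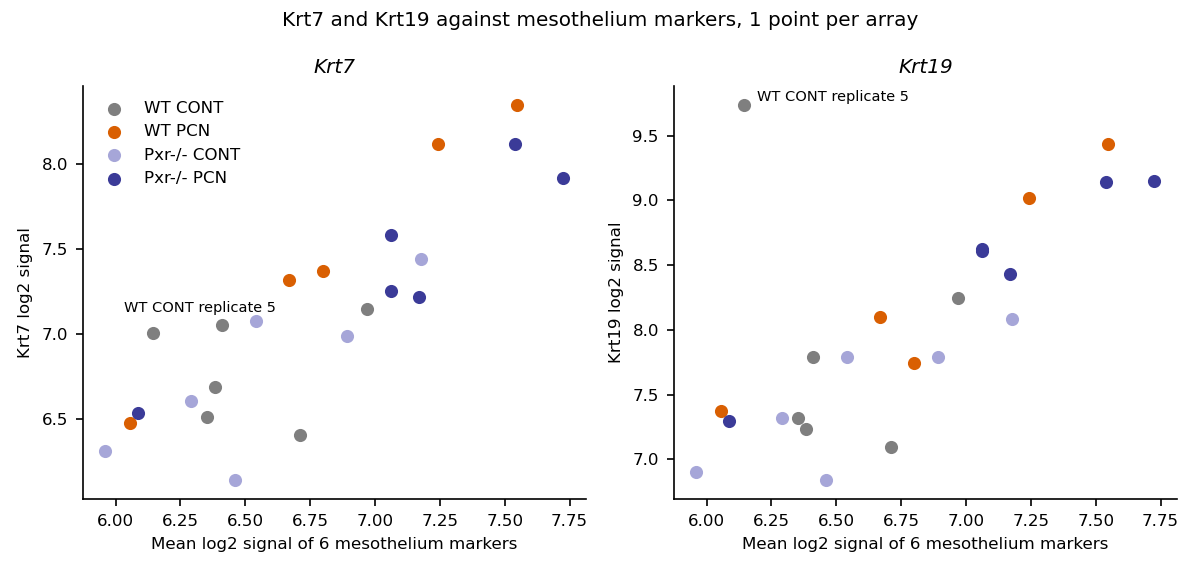
Log2 signal of *Krt7* (left) and *Krt19* (right, vertical axes) against the mean log2 signal of 6 mesothelium markers (horizontal axes) on 23 arrays, coloured by group. Arrays with a high marker mean are high in both keratins, except that WT CONT replicate 5 has the highest *Krt19* signal, 9.74, at 1 of the lowest marker means, 6.14.

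*Krt20* (chr11:99289776-99289835, mm9) was not well above background on 22 of 23 arrays, where its signal, normalized over all probes, lay between 4.52 and 5.01. On WT CONT replicate 5 it was at 10.57. No change after PCN was therefore tested, and without that array the 5 other WT CONT mice lay between 4.69 and 4.96.

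Of the 5 tested member probes that were not picked for their change, none was called after PCN in WT mice, where 3.38% of all probes were called higher and 2.13% lower. Both *Krt7* and *Krt18* had an unadjusted p under 0.05 in limma, as did 11153 of all 32087 probes tested. In *Pxr*-/- mice these 5 probes had no call either, where 1.23% of all probes were called higher and 0.698% lower. There *Krt7* and *Krt19* were under 0.05 before adjustment in limma, as were 6943 of the 32087 probes. None of the 5 was called for a difference between the genotypes' responses, where 0.676% of all probes were called higher and 0.206% lower, or between control mice of the 2 genotypes, with 0.209% and 0.0623%. No unadjusted limma p of the 5 was under 0.05 in these contrasts, against 4590 and 3637 of the 32087 probes in the same order. The differences of the 5 probes between control mice ranged from -0.45 (*Krt19*) to 0.11 (*Krt18*). The *Krt19* difference was -0.08 without WT CONT replicate 5.

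**Figure D5:**
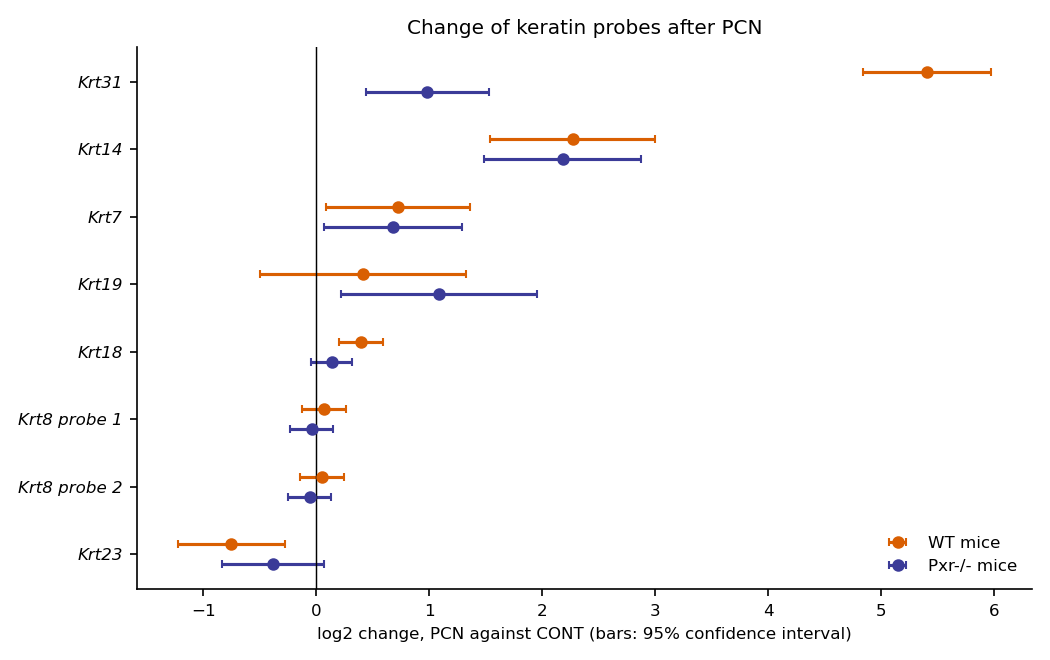
Log2 change after PCN (horizontal axis) with 95% confidence intervals for each tested member probe and *Krt14* (vertical axis) in WT and *Pxr*-/- mice, from the limma fit. The *Krt31* intervals are 4.84 to 5.98 in WT and 0.44 to 1.52 in *Pxr*-/- mice. *Krt31* and *Krt23* were picked for their WT changes, so their genotypes are compared as a description without a test. Whether the 2 intervals of a probe overlap is no test of a difference between the genotypes.

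Most other keratins were not detected in these livers. The array held 52 keratin genes with 68 probes, of which 23 probes of 21 genes were kept, and 35 of the 45 probes set aside were above background on no array. Among the 16 kept probes of non-members, 1 was called after PCN in WT and 1 in *Pxr*-/- mice, and this was *Krt14*, the type I keratin of basal epidermal cells. It was called higher in both, as were 3.38% of all probes tested in WT and 1.23% in *Pxr*-/- mice. The median change of these 16 probes was 0.02 in WT and 0.07 in *Pxr*-/- mice, against -0.02 and -0.01 over all probes tested.

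*Krt14* (chr11:100064495-100064554, mm9) had signals of 6.58, 5.61, 5.89, 6.29, 5.82 and 5.25 in WT CONT and of 8.35, 8.85, 8.17, 8.10 and 7.45 in WT PCN mice, with no overlap. *Pxr*-/- mice had *Krt14* signals of 6.47, 5.31, 5.52, 5.64, 5.77 and 5.99 without PCN and 8.68, 6.23, 7.94, 8.39, 7.81 and 8.73 with it, where replicate 2 of the PCN group lay below 1 control. All PCN arrays, 5 of 6 WT CONT arrays and 4 of 6 *Pxr*-/- CONT arrays had it well above background. The changes were 2.27 (95% confidence interval 1.54 to 3.0) and 2.18 (1.49 to 2.87), both called (limma, adjusted p = 0.000108 and 0.000951), and the difference between them was 0.09 (-0.92 to 1.09; adjusted p = 0.958). Within washing batch 2 the *Pxr*-/- change was 2.02 and not called (limma, adjusted p = 0.119). Over the 23 arrays *Krt14* had r = 0.641 with the mesothelium mean and 0.764 with the mean of 4 stellate cell markers. With the mean of 7 genes of other intermediate filaments r was 0.858. After removal of group and batch means the 3 values were 0.602, 0.334 and 0.542. Of the stellate cell markers, *Col1a1*, a collagen chain, was called higher in both genotypes (3.17 and 1.96). The other 3, *Lrat*, *Des* and *Reln*, were not called, with changes of -0.47, 0.09 and 0.08 in WT mice, and the median of the list was 0.09.

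Genes that work with keratin filaments were read from a list of 18 desmosome, plakin and stress partner genes, all kept. In WT mice 1 was called higher and 2 lower, against 3.38% and 2.13% of all probes tested, and 15 were not called. The median change was -0.04, against -0.02 over all probes. *Tgm2*, a transglutaminase that crosslinks proteins, rose by 0.83 (limma, adjusted p = 0.000312). *Dsp*, the desmosomal plakin that anchors keratins, fell by 0.68 (adjusted p = 0.000698), and *Ppl*, periplakin, fell by 0.64 (adjusted p = 0.0492). *Sqstm1*, the p62 scaffold that collects with keratins in stressed hepatocytes, had a change of 0.19 (limma, adjusted p = 0.107). None of the 18 was called in *Pxr*-/- mice, where 1.23% of all probes were called higher and 0.698% lower. None was called for the difference between genotypes either, with 0.676% and 0.206% of all probes.

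Of 7 kept genes of other intermediate filaments, 1 was called higher in WT and 2 in *Pxr*-/- mice. *Vim*, the filament of mesenchymal cells, rose by 1.32 and 0.89 in the 2 genotypes (limma, adjusted p = 9.80e-05 and 0.00857). *Lmnb2*, a nuclear lamin, rose by 0.69 in *Pxr*-/- mice (limma, adjusted p = 0.0153) and had 0.50 in WT mice, under the fold for a call. Of the 3 kept genes of epidermis and hair follicle other than keratins, 1, *Lor*, the cornified envelope protein loricrin, was called lower in both genotypes (-1.72 and -0.85, limma adjusted p = 2.31e-05 and 0.0234), and none was called higher. Beside these counts, 3.38% of all probes tested were called higher and 2.13% lower in WT mice. In *Pxr*-/- mice the shares were 1.23% and 0.698%. The counts describe the lists only.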

How the data were processed

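Agilent Feature Extraction 10.10.1.1 files, as deposited, give a linear intensity per spot and background flags. The authors' methods name a filter on median signals, log2, a washing batch correction and CrossNorm. The log2 values they deposited served as an alternative. Here, spots with an outlier flag (2225 in all) were set to missing, log2 median intensity was averaged per probe, probes were filtered as described, and arrays were quantile normalized. With R 4.3.3 and its package data.table (version 1.17.8), limma 3.58.1 fitted 4 groups and a washing batch term, with 18 residual degrees of freedom. A call required a Benjamini-Hochberg adjusted p of at most 0.05 over 32087 probes and a fold above 1.5.

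Members, lists and tests were chosen with earlier results of these data known. Named genes were the members, other called keratins, the 5 genes most correlated with *Krt31* and *Krt23*, and up to 4 examples per list, the brightest. The called genes of each list, the intestine and mesothelium markers, *Epcam* and *Cldn7* were named after their values were seen. Groups and batches came from the labels. Alternatives were other signals, background corrections, normalizations, filters, batch and slide terms, a replicate block and leaving out each array. Array number limits precision. The fit was tested on simulated data. Promoters are from RefSeq (GRCm38.p6), and probe positions are mm9.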

Additional observations from a re-analysis of the deposited data

Results flagged for a closer look

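*Krt20* on WT CONT replicate 5 stood far from the rest of its group, at 10.57 against 4.96 for the nearest of the other 5 mice. *Krt14* on *Pxr*-/- PCN replicate 2, at 6.228, lay below the other 5 mice of its group, of which the nearest was at 7.81. These were 2 of 36 groups of values examined for a sample far from the others, and chance flags about 1 in 20 such groups. The array low in *Krt14* was also the lowest of its group in *Krt7* (6.54), *Krt19* (7.30) and the mesothelium mean (6.09), and the part of these in the value was not tested.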

How the results depend on the processing

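Calls of *Krt31* and *Krt23* were counted in *Pxr*-/- mice alone. The number of other keratin probes called higher in WT mice (1) became 2 with the deposited values and with stacked normalization, and 4 within washing batch 2. The number of keratin probes called higher in *Pxr*-/- mice (2) became 1 within batch 1 and 0 within batch 2. Leaving out 1 array gave 1 to 2 higher calls in WT mice (2 without WT PCN replicate 5), 1 to 2 in *Pxr*-/- mice, and 0 for the difference of responses and between controls, with 0 lower calls in each. Batches hold fewer arrays; other causes were not tested.

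Signs turned within batch 1 for PCN in WT mice (*Krt7* -0.014, *Krt19* -0.85), for the difference of responses (*Krt7* -0.66, *Krt23* 0.036, *Krt14* -0.47) and between controls (*Krt8* probe 1 -0.0048, probe 2 0.024). Within batch 2 they turned for *Krt8* probe 2 in *Pxr*-/- mice (0.11), for the difference of responses (*Krt8* probe 2 -0.065, *Krt19* 1.00) and between controls (*Krt7* 0.10, *Krt18* -0.045, *Krt19* 0.12, *Krt14* 0.041). Between controls they also turned for *Krt7* with median centring (0.0022), for *Krt8* probe 1 with the deposited values (-0.061) and stacked normalization (-0.060), and for *Krt8* probe 2 with processed signals (0.024), which also turned the *Krt14* difference of responses (-0.077). None of these was called in the main analysis. Leaving out 1 array gave ranges across 0 for the difference of responses of *Krt7* (-0.19 to 0.31) and *Krt14* (-0.25 to 0.28), for *Krt8* probe 1 in *Pxr*-/- mice (-0.10 to 0.028), and between controls for *Krt7* (-0.18 to 0.090), *Krt8* probe 1 (-0.014 to 0.083), probe 2 (-0.070 to 0.015) and *Krt14* (-0.26 to 0.0079). Of 930 alternative values of single probes that were tested, 875 kept direction and side of the threshold. The other 214, of *Krt31* and *Krt23* outside the *Pxr*-/- comparison, were not tested, and 213 of them kept direction and moved by less than 1 SD between replicates. The WT change of *Krt31* ranged from 5.05 to 5.83 and that of *Krt23* from -0.99 to -0.56 over 36 alternatives.

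The labels give no pairing of mice by replicate number. Deviations of the 33 same-number pairs had a mean correlation of 0.06 (range -0.17 to 0.61, 13 over 0.1), against -0.01 for other pairs. Of 23 arrays, 8 were closest to their own number, and these values do not settle whether the numbers pair the mice. With a replicate block, the counts of keratin probes were 1 higher in WT (*Krt31* and *Krt23* left out) and 2 higher in *Pxr*-/- mice, and *Krt31* changed by 0.98 in *Pxr*-/- mice (limma, adjusted p = 0.00838).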
